A study of Homo sapiens with 4 samples.

Results

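Heme transport and breakdown was followed here through 10 genes, chosen by function with earlier results of these data known. The list holds the heme oxygenases HMOX1 and HMOX2, the biliverdin reductases BLVRA and BLVRB, and the heme-binding protein PGRMC1. It also holds the membrane transporters FLVCR1, FLVCR2, SLC48A1, ABCG2 and ABCB6. The 10 genes were matched by symbol and joined by gene ID, and all were found among 61498 annotated genes. K562 is a human erythroleukaemia line that can be pushed towards the red cell lineage in culture. It was grown in RPMI medium with fetal calf serum, either untreated (2 libraries) or with 50 µM hemin for 108 h (2 libraries), to see how gene expression changes when hemin, the oxidised chloride form of heme, starts erythroid differentiation. No culture time is stated for the untreated cells, so an effect of time in culture cannot be told apart from one of hemin. Poly(A) RNA was sequenced with reads of 50 bases. The replicates are only numbered in the labels, and nothing states that they came from separate cultures of the line, so the p-values measure the spread between these libraries, which may be technical.

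Heme is an iron-holding ring that cells need for globins and cytochromes, yet free heme is toxic, so its entry, movement and removal are controlled. Heme oxygenase opens the ring and releases iron, carbon monoxide and biliverdin, and biliverdin reductase turns biliverdin into bilirubin. Heme itself is moved across membranes by dedicated carriers, and HMOX1 is known as the form that heme and oxidative stress can induce, while HMOX2 is the constitutive form.

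Expected counts (the estimated number of reads per gene) summed to 7455447 to 8241534 per library, of which 12.8% to 13.6% lay on the mitochondrial genome. Counting error alone allows up to 3 counts where 0 are seen, or 0.364 to 0.402 counts per 1000000 (CPM) in these libraries. All 8 erythroid line markers examined had more than 3 counts over the libraries, with summed levels of 1890 and 1990 CPM in the untreated and 2290 and 2140 CPM in the hemin-treated libraries. Of the 8, 2 passed the edgeR test as higher, beside 7.0% of all genes tested, and 0 as lower, beside 7.14%. Markers of other cells were low. The 7 macrophage markers summed to 6.56 to 10.4 CPM with CD163 at 0, the 5 hepatocyte markers to 0.249 to 0.284 CPM with TTR and SERPINA1 at 0, the 5 platelet and megakaryocyte markers to 3.52 to 7.11 CPM with GP9, PF4 and PPBP at 0, and the 5 lymphocyte markers to 0.243 to 2.0 CPM with CD3E, MS4A1 and CD8A at 0.

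BLVRB, the member with the highest level, fell after hemin, and BLVRA acts at the same step. The bases upstream of their transcription starts are shown to set the pair side by side, 5′ to 3′ on the strand of the gene, as given by RefSeq for GRCh38.p14. The window of BLVRB is chr19:40465746-40465995 on the minus strand and that of BLVRA is chr7:43758430-43758679 on the plus strand, each 250 bases long. Capitals mark the letters of a GC box (GGGGCGGGG, here read on the opposite strand) and of a CCAAT box (CCAAT).
BLVRB: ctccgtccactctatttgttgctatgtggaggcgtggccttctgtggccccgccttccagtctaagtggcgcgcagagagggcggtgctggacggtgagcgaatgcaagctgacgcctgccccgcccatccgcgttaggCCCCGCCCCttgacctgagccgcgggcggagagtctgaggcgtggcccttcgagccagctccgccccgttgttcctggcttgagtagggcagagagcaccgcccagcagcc
BLVRA: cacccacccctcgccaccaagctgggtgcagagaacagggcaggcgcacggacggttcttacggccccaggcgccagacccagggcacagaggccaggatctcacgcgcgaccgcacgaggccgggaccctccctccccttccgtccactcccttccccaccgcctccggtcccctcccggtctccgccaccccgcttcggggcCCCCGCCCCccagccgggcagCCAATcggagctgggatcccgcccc
The GC box letters began 111 bases before the start of BLVRB and 46 bases before that of BLVRA, and 15.1% of 35116 human promoter windows of this length hold them on either strand. CCAAT was found 25 bases before the start of BLVRA and on neither strand of the BLVRB window, against 32.0% of all windows. The other letters searched on both strands, AGATAA for GATA factors (9.17% of windows), TGACNNNGC for the antioxidant response element core (10.9%), CCACACCC for the CACCC box (2.97%) and the E-box CACGTG (6.34%), were in neither window. Both windows were rich in G and C, at 67.2% with 21 CpG dinucleotides for BLVRB and 74.4% with 23 for BLVRA. Of the BLVRB window, 19 bases lie in an annotated exon. Windows were found for 9 of the 10 genes, all except HMOX1.

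Levels across genes were compared in transcripts per 1000000 transcripts (TPM), which corrects for transcript length. The deposited gene lengths exceeded the effective lengths behind this correction by a median of only 48.41 to 48.44 bases, a smaller gap than the mean fragment length set for the quantification would give. This bears most on short transcripts, and its part in the order of levels was not tested. Ranked by mean TPM over the 4 libraries, BLVRB came first at 145 TPM, followed by PGRMC1 at 105.8, BLVRA at 46.8, HMOX2 at 32.4, ABCB6 at 16.9, SLC48A1 at 15.8, FLVCR1 at 13.3 and ABCG2 at 3.05 TPM. FLVCR2 at 0.205 and HMOX1 at 0.18 TPM closed the order. The neighbours ABCB6 and SLC48A1, SLC48A1 and FLVCR1, and FLVCR2 and HMOX1 overlapped in TPM within both groups, so their order was not resolved. BLVRB alone carried 38.2% of the summed TPM of the 10 genes. That sum was 404 and 418 TPM in the untreated and 349 and 347 TPM in the hemin-treated libraries, lower in both treated libraries. The lower sum lay largely in BLVRB, with means of 170 TPM untreated and 120 TPM after hemin.

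**Figure D1:**
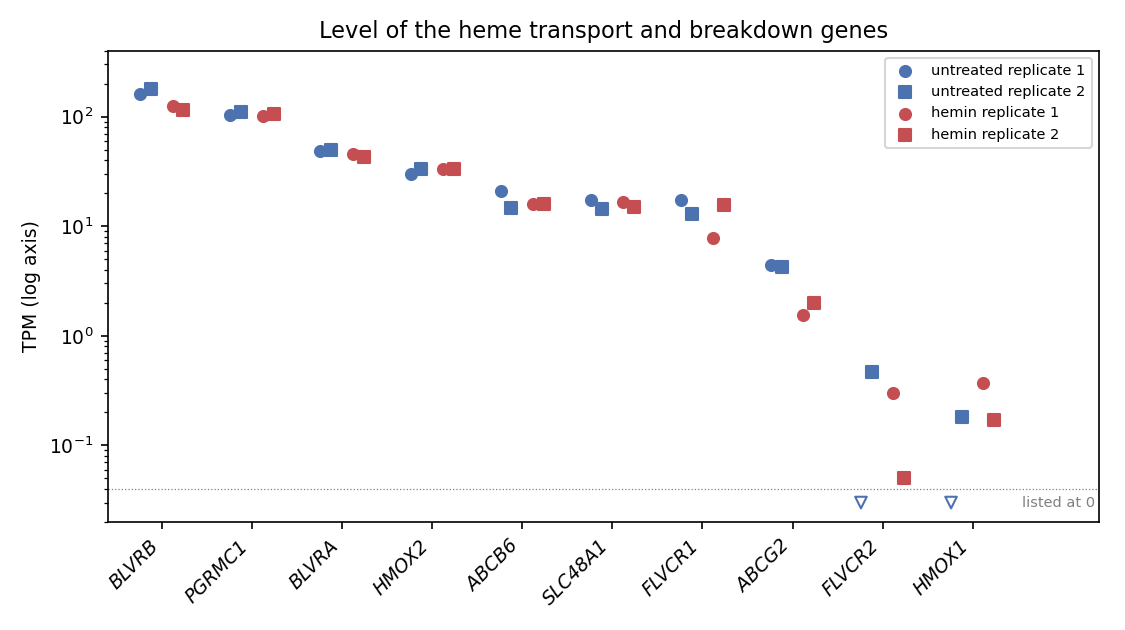
The level of each of the 10 genes in each library, in TPM on a log axis, with untreated libraries in blue, hemin-treated libraries in red, replicate 1 as circles and replicate 2 as squares; open triangles mark libraries listed at 0. BLVRB and ABCG2 are lower in both hemin-treated libraries, whereas HMOX1 and FLVCR2 lie at or below 0.47 TPM throughout.

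Of the 10 genes, 8 had enough counts to be tested, and HMOX1 and FLVCR2 did not. With edgeR's quasi-likelihood test and Benjamini-Hochberg adjustment over 14458 genes, at an adjusted p under 0.05, 2 of the 8 were lower after hemin (BLVRB and ABCG2) and 0 were higher. Over all genes tested 7.14% were called lower and 7.0% higher, 14.1% in either direction. At an unadjusted p under 0.05, met by 29.4% of all genes in edgeR and 17.0% in DESeq2, each tool still gave 0 members higher and 2 lower. By adjusted p, DESeq2 called the same 2 genes lower, against 3.49% of all genes lower, 4.07% higher and 7.57% in either direction. The median log2 fold change of the 8 was -0.08, beside -0.0048 over all genes tested. Because the members were chosen with earlier results of these data known, these shares and medians are description only. Library-scaled CPM of the 2 groups did not overlap for 4 of the 8 (HMOX2, BLVRA, BLVRB and ABCG2), a share close to the 57.3% of all genes tested with groups apart (28.1% with both treated libraries higher, as for HMOX2, and 29.3% with both lower). In simulated libraries of the same depth the test called 135 of 189 genes changed 1.5-fold and 165 of 193 changed 2-fold. The simulation gave every gene the same dispersion, 0.001179, and pooled genes of all levels. Recovery at the level and spread of a given member was therefore not tested.

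**Figure D2:**
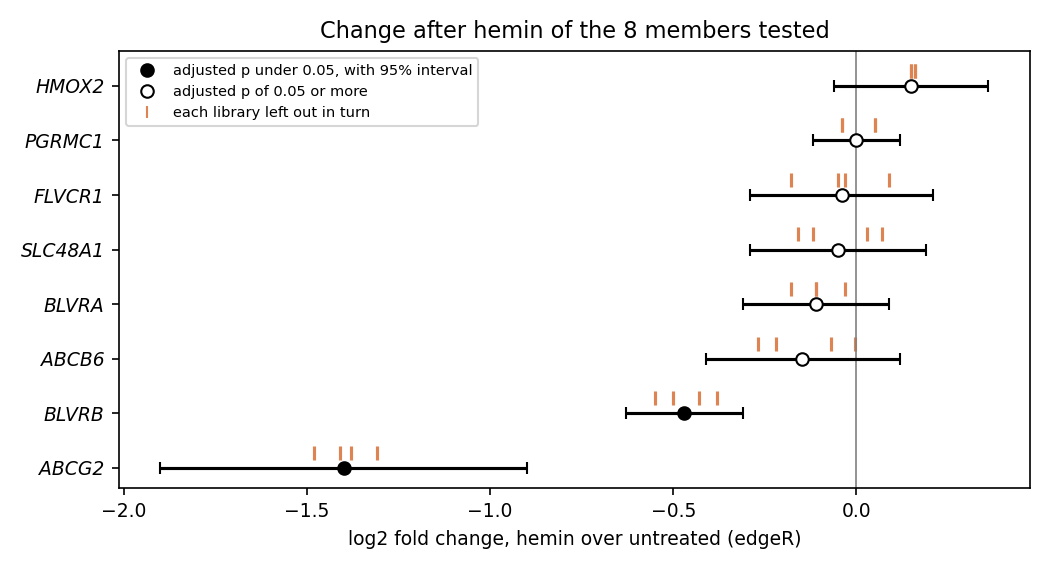
The log2 fold change of each of the 8 tested genes, hemin over untreated, from edgeR, with its 95% interval; filled points passed an adjusted p of 0.05 and orange ticks give the value with each library left out in turn. ABCG2 at -1.40 and BLVRB at -0.47 stay left of 0 in every case, and the ticks of FLVCR1, SLC48A1 and PGRMC1 fall on both sides of 0.

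Heme oxygenase was present almost wholly as the constitutive HMOX2 transcript, and the inducible HMOX1 could not be detected reliably in either group. HMOX1 (ENSG00000100292, chr22:35380361-35394214, plus strand, GRCh38) had 0 and 1 counts in the untreated and 2 and 1 counts in the hemin-treated libraries, or 0 and 0.18 TPM against 0.37 and 0.17 TPM. All of these lie under the level that 3 counts would give, which was 0.467 to 0.548 TPM for this gene. A difference between the groups below that level was not detectable at this depth, and no fold is given. HMOX2 (ENSG00000103415, chr16:4474690-4510347, plus strand) had 181 and 170 counts in the untreated and 188 and 204 in the hemin-treated libraries. Its level was 30.0 and 33.3 TPM untreated against 33.3 and 33.0 TPM treated, means of 31.7 ± 2.35 and 33.1 ± 0.226 TPM (SD, n = 2), and the groups overlapped on this scale. The log2 fold change was 0.15 (SE 0.093, 95% interval -0.06 to 0.36, edgeR adjusted p = 0.35). Pooled over the 4 libraries there were 743 HMOX2 and 4 HMOX1 counts, a ratio of 186 with an exact 95% interval of 72.2 to 684 that covers counting error only. Per transcript length their means were 32.4 and 0.18 TPM. Of HMOX2's exon bases, 3.05% overlap NMRAL1 on the opposite strand, whose own log2 fold change was -0.09 (edgeR adjusted p = 0.61).

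The reductases stood at different levels, BLVRB fell after hemin, and BLVRA did not pass the test. BLVRB (ENSG00000090013, chr19:40447765-40465764, minus strand), a flavin reductase that acts on biliverdin isomers of the fetal kind, had 689 and 731 counts untreated and 509 and 524 counts after hemin. This corresponds to 161 and 179 TPM against 125 and 116 TPM, means of 170 ± 12.7 and 120 ± 6.34 TPM (SD, n = 2). Both hemin-treated libraries lay below both untreated ones. The log2 fold change was -0.47 (SE 0.071, 95% interval -0.63 to -0.31, edgeR adjusted p = 0.0038), so the treated level was 0.723 of the untreated one (interval 0.647 to 0.808). In bulk RNA, fewer cells carrying a transcript and less transcript per cell cannot be told apart. BLVRA (ENSG00000106605, chr7:43758680-43807342, plus strand), which reduces the main biliverdin isomer made from adult heme, had 279 and 263 counts untreated and 255 and 250 counts after hemin. Its levels were 48.5 and 49.7 TPM against 45.8 and 43.0 TPM, with both treated libraries below both untreated ones. In scaled CPM the same was seen for 29.3% of all genes tested. The log2 fold change of -0.11 (SE 0.087, 95% interval -0.31 to 0.09) did not pass the test (edgeR adjusted p = 0.46).

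Within a library, the ratio of one gene to another does not depend on how libraries are scaled. The ratio of BLVRB to BLVRA in TPM was 3.32 and 3.60 untreated and 2.72 and 2.69 after hemin, a difference of -0.35 on the log2 scale. The ratio of BLVRB to HMOX2 was 5.36 and 5.37 untreated and 3.75 and 3.52 after hemin, a log2 difference of -0.56. For both ratios the groups did not overlap, and the exact two-sided permutation test gave p = 0.333 for each (0.333 adjusted over the 3 ratios tested), the smallest value that 2 libraries against 2 allow. Both ratios have BLVRB as numerator, so they carry its fall again and are not separate support for it. The fall of BLVRB kept its call with each library left out in turn (log2 fold change -0.55 to -0.38, edgeR adjusted p = 0.000513 to 0.0256). In limma on log2(TPM + 1) and log2(TPM + 0.1) it did not pass (-0.49 and -0.50, adjusted p = 0.216 and 0.255), tests that called 0 and 2 of 14458 genes (0.0138% for the latter), with 16.2% and 15.3% at an unadjusted p under 0.05.

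Among the transporters that export or move heme, ABCG2 fell most. FLVCR1, SLC48A1 and ABCB6 did not pass the test, and FLVCR2 had too few counts to be tested. ABCG2 (ENSG00000118777, chr4:88090150-88231628, minus strand), a plasma membrane pump that exports porphyrins and many drugs, had 68 and 66 counts in the untreated and 26 and 25 counts in the hemin-treated libraries. Its level was 4.40 and 4.27 TPM against 1.54 and 2.00 TPM, means of 4.33 ± 0.0919 and 1.77 ± 0.325 TPM (SD, n = 2). The untreated level was 2.63-fold that after hemin. The deposited TPM intervals of the single libraries were wider than the spread between them. They ran from 3.17 to 6.92 and 3.11 to 6.74 untreated, and from 1.16 to 3.84 and 1.3 to 4.16 after hemin, so they overlapped. The log2 fold change was -1.40 (SE 0.22, 95% interval -1.9 to -0.9, edgeR adjusted p = 0.0045), and the treated level was 0.380 of the untreated one (interval 0.269 to 0.537). The gene was expressed at a low level, at the 17.4th percentile of tested genes, against the 94.4th for BLVRB. It kept its call with each library left out (-1.48 to -1.31, edgeR adjusted p = 0.00184 to 0.0295), whereas limma on log2(TPM + 1) and log2(TPM + 0.1) gave -0.95 and -1.26 with adjusted p = 0.179 and 0.188.

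FLVCR1 (ENSG00000162769, chr1:212858275-212899363, plus strand), the plasma membrane heme exporter also known for choline transport, gave different pictures in counts and in TPM. It had 195 and 182 counts untreated and 160 and 209 counts after hemin, and the log2 fold change from counts was -0.04 (SE 0.11, 95% interval -0.29 to 0.21, edgeR adjusted p = 0.85). In TPM it was 17.2 and 12.8 untreated against 7.77 and 15.5 after hemin, so that the treated libraries lay on both sides of the lower untreated one. Its mean transcript length, weighted by the estimated isoforms, was 2068 and 2668 bases untreated and 3870 and 2317 bases after hemin. The library with the lowest TPM, hemin replicate 1, was the one with the greatest length, and its CPM of 21.4 stood nearer to the 24.4 to 25.4 CPM of the others than its TPM did. Without that library the log2 fold change from counts was 0.09, and from limma on TPM it reached -0.43 with all libraries. The part that isoform assignment has in this was not tested.

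**Figure D3:**
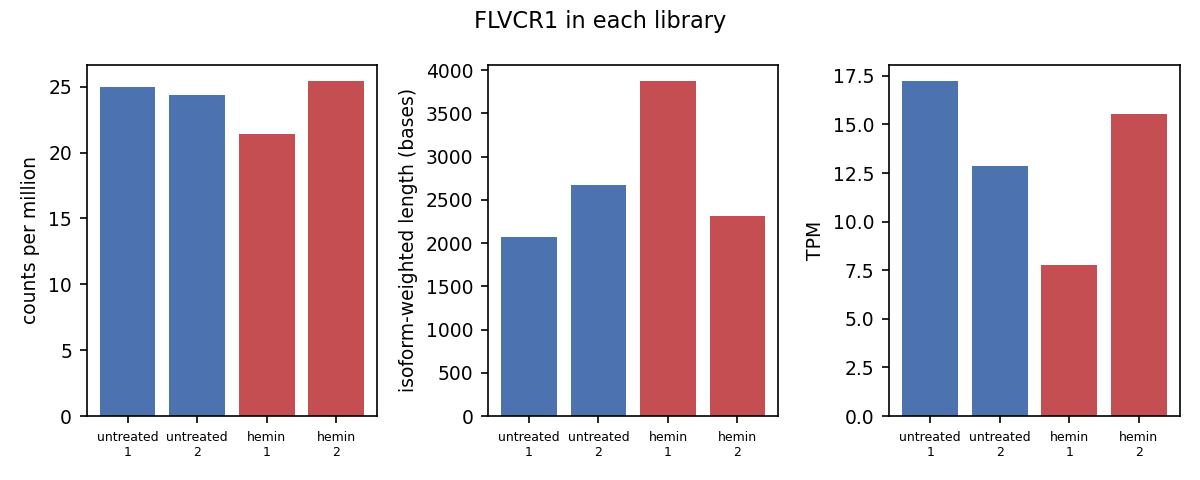
FLVCR1 in each library in CPM (left), as the isoform-weighted transcript length in bases (middle) and as TPM (right), with untreated libraries in blue and hemin-treated libraries in red, bars from 0. Hemin replicate 1 has the greatest length, 3870 bases, and the lowest TPM, 7.77, while its value of 21.4 CPM is close to the rest.

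The ratio of FLVCR1 to ABCG2 was 3.91 and 3.01 in TPM untreated and 5.05 and 7.76 after hemin, a log2 difference of 0.87 (exact two-sided permutation p = 0.333, again the smallest possible). In counts the same ratio was 2.87 and 2.76 untreated and 6.17 and 8.36 after hemin. On both scales the groups did not overlap, and the ratio carries the fall of ABCG2 already given. FLVCR2 (ENSG00000119686, chr14:75578620-75663214, plus strand), the relative of FLVCR1 best known for transport at the blood-brain barrier, had 0 and 1 counts untreated and 2 and 1 after hemin. It stayed under the level of 3 counts in every library, 0.141 to 1.41 TPM for this gene, and 6.76% of its exon bases are shared with TTLL5 on the same strand. FLVCR1 was thus the FLVCR gene with measurable transcript in both groups.

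Neither SLC48A1, an intracellular carrier, nor the heme-binding PGRMC1 passed the test. SLC48A1 (ENSG00000211584, chr12:47753916-47782751, plus strand), which moves heme out of endosomes and lysosomes into the cytosol, had 256 and 206 counts untreated and 227 and 221 after hemin. In TPM this was 17.5 and 14.4 against 16.5 and 15.0, with the treated libraries between the untreated ones, and the log2 fold change was -0.05 (SE 0.11, 95% interval -0.29 to 0.19, edgeR adjusted p = 0.81). PGRMC1 (ENSG00000101856, chrX:119236245-119244466, plus strand), a membrane protein that binds heme and associates with ferrochelatase, had 1067 and 1077 counts untreated and 1006 and 1157 after hemin. Its means of 107 ± 3.41 and 105 ± 2.98 TPM (SD, n = 2) overlapped, and the interval of its log2 fold change, -0.12 to 0.12, was the narrowest of the 8 (edgeR adjusted p = 0.98).

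ABCB6 (ENSG00000115657, chr2:219209772-219218994, minus strand), an ABC transporter of porphyrins found at mitochondria and other membranes, had 224 and 176 counts untreated and 184 and 179 after hemin. In TPM this was 20.8 and 14.8 against 15.9 and 16.1, with both treated libraries between the untreated ones. The log2 fold change was -0.15 (SE 0.12, 95% interval -0.41 to 0.12, edgeR adjusted p = 0.46). The value is uncertain because 54.6% of its exon bases, 2841 in all, also belong to ENSG00000284820, a protein-coding gene on the same strand. That gene, singled out after its values were seen, had 19.0 and 15.9 counts untreated and 31.6 and 45.3 after hemin (log2 fold change 1.12, edgeR adjusted p = 0.039), with a sampling SD from the read division of 36.2% to 79.0% of the count. Summed over both genes the counts were 243 and 192 untreated and 216 and 225 after hemin, and the log2 fold change became 0.01 (95% interval -0.23 to 0.25, edgeR adjusted p = 0.96).

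The genes around these steps were followed in 5 lists. Their counts stand beside 7.0% of all genes tested called higher and 7.14% called lower in edgeR. Of 12 genes of heme synthesis, 2 were lower and 0 higher (4 lower and 2 higher at an unadjusted p under 0.05 in edgeR), with a median log2 fold change of -0.144. ALAS1, the housekeeping enzyme of the first step, had 211 and 219 counts untreated and 129 and 131 after hemin (log2 fold change -0.73, SE 0.11, edgeR adjusted p = 0.003). ALAS2, its erythroid form, fell by 0.25 on the log2 scale (edgeR adjusted p = 0.025) but did not pass in DESeq2 (adjusted p = 0.0647) or without untreated replicate 1, untreated replicate 2 or hemin replicate 2 (adjusted p = 0.0894, 0.103 and 0.147), and over its alternatives the adjusted p ran from 0.00386 to 0.555. The number of synthesis genes called lower was 4 with library-size scaling, the stricter count filter and posterior mean counts, 1 in DESeq2 and 1 without untreated replicate 2.

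Of 19 other heme carriers and binders, 13 were tested, 1 was lower and 0 were higher (also 0 higher at an unadjusted p under 0.05 in edgeR), with a median of 0.004. The exception was LRP1, the receptor that takes up heme bound to hemopexin, with 176 and 167 counts untreated and 69 and 67 after hemin (log2 fold change -1.34, SE 0.13, edgeR adjusted p = 0.00045). In TPM its groups stood closer, at 3.12 and 5.35 against 2.92 and 1.80, and limma on log2(TPM + 1) gave -0.63. Among the 49 tested genes of these lists, LRP1 had the profile nearest to ABCG2 over the 4 libraries, at a distance of 0.0289 in centred log2 CPM, followed by ALAS1 at 0.616 and ALAS2 at 1.08. The genes nearest to BLVRB were ALAS2 at 0.244, ALAS1 at 0.261 and FECH, the ferrochelatase that inserts iron, at 0.261. With 2 libraries per group, such distances largely restate the log2 fold changes, -1.4 for ABCG2 beside -1.34 for LRP1. They are no separate support for a shared behaviour.

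Of 10 heme sensors and regulators, 3 were higher and 1 lower, with a median of 0.176. Over all genes tested 7.0% were higher and 7.14% lower, with a median of -0.0048. BACH2, a repressor related to BACH1, rose from 161 and 143 to 214 and 242 counts (log2 fold change 0.58, edgeR adjusted p = 0.0055), and KEAP1, the adaptor that holds NRF2 in check, rose by a log2 fold change of 0.34 (edgeR adjusted p = 0.012, 0.0768 without untreated replicate 1, range over alternatives 1.76e-05 to 0.461). BACH1, the repressor that heme inactivates, had 567 and 556 counts untreated and 632 and 673 after hemin. Its log2 fold change of 0.21 passed in edgeR (adjusted p = 0.041) but not with the replicate block (0.0619), in DESeq2 (0.177) or with any 1 library left out (0.0904 to 0.171). EIF2AK1, the heme-regulated kinase of translation initiation, fell by 0.23 on the log2 scale (edgeR adjusted p = 0.012, 0.0621 without untreated replicate 1 and 0.0546 without hemin replicate 1, range over alternatives 0.000492 to 0.271).

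HMOX1 is a classical target of NRF2 and BACH1, and 13 other such targets were followed. Of these, 6 were higher after hemin, beside 7.0% of all genes tested, and 0 lower, beside 7.14% (also 0 lower at an unadjusted p under 0.05 in edgeR). All 13 log2 fold changes lay above 0, with a median of 0.189 beside -0.0048 over all genes tested. Targets that did not pass ran from 0.03 for SRXN1 to 0.37 for OSGIN1. The list was chosen with earlier results of these data known. FTH1, the ferritin heavy chain that stores iron, had a log2 fold change of 0.83 (edgeR adjusted p = 1.4e-05). NQO1, a quinone reductase, had 220 and 218 counts untreated and 370 and 357 after hemin (log2 fold change 0.72, edgeR adjusted p = 0.0013). GCLM, the modifier subunit of the enzyme that starts glutathione synthesis, had 502 and 545 counts untreated and 786 and 929 after hemin (log2 fold change 0.70, edgeR adjusted p = 0.00067). HMOX1 itself, at 0 to 2 counts per library, stood apart from these targets in level. Of 7 genes of bilirubin and biliverdin disposal, ABCC1, a broad export pump, was the 1 tested (log2 fold change 0.09, edgeR adjusted p = 0.48), and the others had at most 12 counts in a library. The 13 called genes of these lists all lost their call in both limma fits on TPM, where BACH2 was at 0.26 and 0.31, GCLM at 0.43 and 0.44 and EIF2AK1 at -0.42 in each on the log2 scale.

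**Figure D4:**
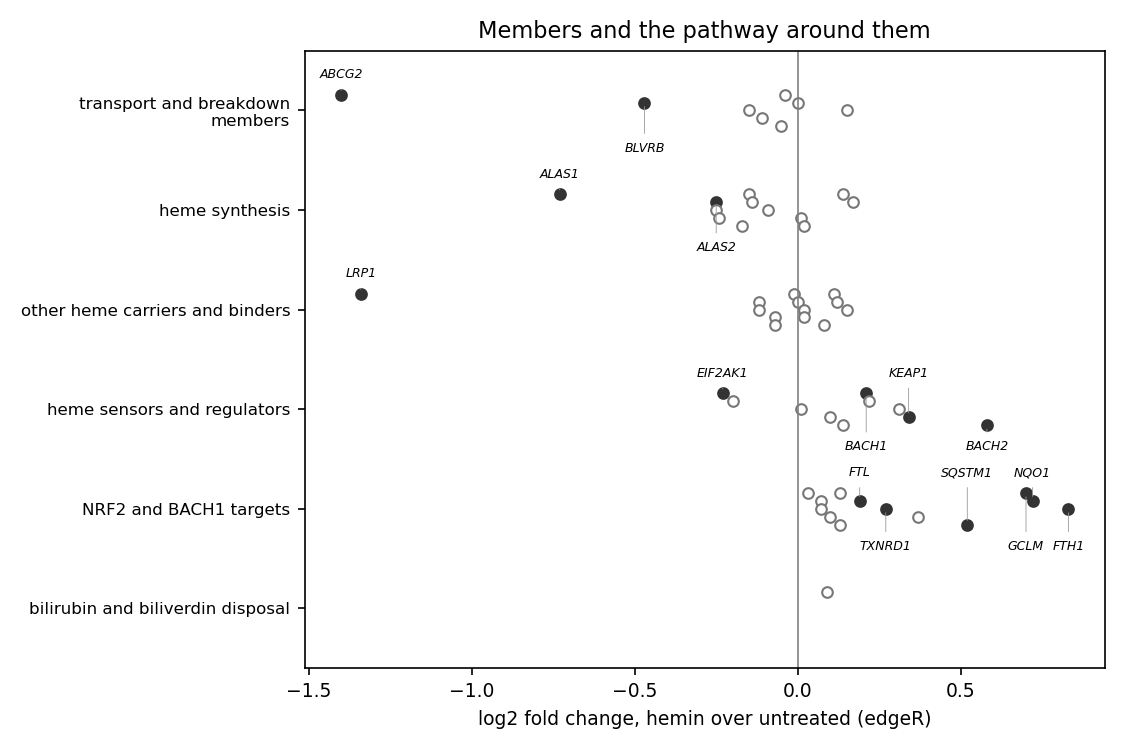
The log2 fold change, hemin over untreated from edgeR, of the tested heme transport and breakdown genes (top) and of the tested genes of the 5 lists, 1 point per gene with vertical offsets only for legibility; filled, named points passed an adjusted p of 0.05. ABCG2 and LRP1 lie furthest left at -1.40 and -1.34. All 13 NRF2 and BACH1 targets lie right of 0, and 6 of them passed, in a list chosen with earlier results of these data known.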

How the data were processed

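RNA-seq libraries of K562 cells, 2 untreated and 2 hemin-treated, were used. The authors trimmed reads (Trimmomatic 0.39) and quantified each library with RSEM 1.3.1 and STAR 2.7.5c on an Ensembl annotation of GRCh38. The deposited expected counts and posterior mean counts are RSEM estimates, not normalized, with shared reads divided between genes. The TPM are the authors' values scaled by effective length, and their interval bounds, a deposited signal on the TPM scale, describe the posterior mean. The deposited FPKM were not used. No strand option is stated, so reads of overlapping genes on opposite strands cannot be told apart.

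Counts were rounded and fitted over all genes with edgeR 4.0.16 in R 4.3.3 (filterByExpr, TMM, quasi-likelihood test, Benjamini-Hochberg, threshold 0.05). SE were taken from the F statistic. Alternatives were DESeq2 1.42.0, limma 3.58.1 on log2 TPM with pseudocounts of 1 and 0.1, other scalings and filters, posterior mean counts, a replicate block, each library left out, and, added after seeing the data, ABCB6 summed with the gene that shares its exons. The fit was tested on simulated data. Coordinates are from GENCODE 44, which held 99.84% of the gene IDs, and promoter windows from RefSeq.

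The text names all 10 genes, up to 3 called genes per list and direction with the largest changes, and the 3 list genes nearest to each called gene. Also named are the ends of the range of NRF2 and BACH1 targets that did not pass. The members and lists were chosen with earlier results of these data known.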

Additional observations from a re-analysis of the deposited data

How the results depend on the processing

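Of 105 fold changes of the 8 tested genes under 14 alternatives, 92 kept their direction and their side of the threshold. BLVRB and ABCG2 were called lower in all alternatives except limma on TPM, which called 0 members with either pseudocount (2 lower at an unadjusted p under 0.05 in each). Over all genes, limma on log2(TPM + 1) called 0 higher and 0 lower (2349 at an unadjusted p under 0.05), and limma on log2(TPM + 0.1) called 0 higher and 2 lower (2209). DESeq2 called 589 higher and 505 lower, against 1012 and 1033 in edgeR. Library-size scaling gave 729 higher and 1358 lower and moved the median of all genes to -0.0434. With 1 library left out, 469 to 934 genes were higher and 512 to 884 lower, the lone library being assumed to vary like the pair. Without untreated replicate 1 the numbers were 469 and 512, and without untreated replicate 2 they were 537 and 532.

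Directions turned only for genes that did not pass in any fit. PGRMC1, at a log2 fold change of 0.00, was -0.04 with library-size scaling and -0.03 in both limma fits, and ran from -0.04 to 0.05 with 1 library left out. That range was -0.18 to 0.09 for FLVCR1 and -0.16 to 0.07 for SLC48A1. ABCB6 went from -0.15 to 0.0098 when summed with its overlapping gene. Of 169 values of the 13 called list genes, 41 lost their call, none of them reversed, and the cause was not tested.

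The labels do not say whether same-numbered libraries were handled together. Deviations of these libraries from their group means correlated at 0.027 over 10655 genes, which cannot settle it. With the replicate block 855 genes were higher and 886 lower, and among the members and called list genes only BACH1 lost its call. Depth limits HMOX1 and FLVCR2, which lay under 3 counts in every library.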
